A study of Mus musculus with 2 samples.

Results

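The small leucine-rich proteoglycans are secreted matrix proteins built around a run of leucine-rich repeats, most of them carrying chondroitin, dermatan or keratan sulfate chains. The genes described here are Omd, Fmod, Prelp, Dcn, Bgn, Lum, Ogn, Aspn, Kera and Epyc, taken through every probe set that carries 1 of these symbols and no other. They have 21 of the 45101 probe sets on the array, and they are 10 of the 18193 genes that a probe set names alone. These genes were picked with the 2 arrays' values in view, so their differences are a description and no test was made on them.

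In connective tissue these proteins bind fibrillar collagen, set fibril diameter and spacing, and hold growth factors such as TGF-beta and bone morphogenetic proteins in the matrix. By protein and gene structure they fall into classes. Decorin (Dcn), biglycan (Bgn) and asporin (Aspn) belong to class I, with chondroitin or dermatan sulfate chains on the first pair. Fibromodulin (Fmod), lumican (Lum), prolargin (Prelp), keratocan (Kera) and osteomodulin (Omd, also called osteoadherin) belong to class II, in which keratan sulfate is the usual chain. Epiphycan (Epyc) and osteoglycin (Ogn, also called mimecan) belong to class III.

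The cells were MOS-J, a mouse osteosarcoma line grown in culture. One group, control, carried a control vector, and the other, DKK1, carried human DKK1, which encodes a secreted blocker of canonical Wnt signalling. The sample labels call both transfections lentiviral, while the treatment protocol describes viral delivery followed by G418 selection of clones, and also plasmid delivery followed by blasticidin, a red fluorescent mitochondrial label and sorting. The sources used here do not say which route the profiled cells took or whether each was 1 clone. Each group had 1 array, made from 500 ng of total RNA, so no value has a replicate error, no p-value can be given, and vector, clone, culture and array cannot be told apart from DKK1 itself. The number of arrays limits the precision.

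The values are MAS5 signals, 1 linear intensity per probe set, scaled on each array to a trimmed mean of 500. A probe set was taken as measured if its 2 signals averaged at least 71.3, the median over all probe sets, and a difference is log2(signal + 16.6) of DKK1 minus control. A gene takes the mean over its measured probe sets. It was called higher or lower at a difference of at least 1, which is 2-fold, with all measured probe sets on that side. The pseudocount of 16.6 understates the change of dim genes, and where a signal lay under 71.3 the fold is given as a bound, with the dim signal raised to 71.3. Median signals were 62.6 (control) and 78.6 (DKK1). Over 18 probe sets of spike-in RNAs added after labelling the median log2 difference was −0.37, with a range of −0.59 to −0.24. Over 20 of those carried through labelling it was 0.64, with a wider range of 0.10 to 1.21. Scaling thus bears on the direction of all small differences, and the share of calls that were higher was 62.9% as deposited, 35.4% with medians centred, 51.1% with quantiles matched, 53.3% with a loess fit, 85.6% on the first spike-ins and 16.6% on the second. The median difference of all genes was 0.10 as deposited and, in the same order of alternatives, −0.21, −0.04, −0.01, 0.45 and −0.50. The mouse Dkk1 probe sets need not match the human transgene and check nothing about the labels.

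The labelled cell type was checked on osteoblast markers. Of 12 listed, 8 were on the array under their own symbol and 5 were measured, namely Sp7, Alpl, Sparc, Col1a1 and Phex. Ibsp, Dmp1 and Mepe lay under the filter on both arrays, and Runx2, Bglap, Bglap2 and Spp1 were not analysed here. Sp7, a transcription factor that commits cells to the osteoblast line, gave 87.0 in control and 117 in DKK1 cells. Alkaline phosphatase (Alpl) had 147 and 182. Both were dim and were not called, at differences of 0.36 and 0.27. Sparc (0.94) and Col1a1 (0.79), for osteonectin and a collagen I chain, were not called as deposited. Both were called higher on the spike-ins added after labelling (1.29 and 1.16). Phex, an endopeptidase gene of bone phosphate handling, was called lower at −3.54. Its 1 measured probe set gave 200 and 1.97, at least 2.80-fold lower, and that call ended with no filter on dim signals.

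Of the 10 genes, 6 were measured on at least 1 probe set. Omd, Fmod, Prelp and Ogn were called higher in the DKK1 cells, Dcn was called lower and Bgn was not called. Among all 11058 measured genes, 18.6% were called, 11.7% higher and 6.91% lower. A gene bright on 1 array alone passes the filter through that array and had to differ, so nothing is read from the members' count against these shares. In bulk RNA a smaller number of cells expressing a gene and less RNA per cell cannot be told apart.

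**Figure D1:**
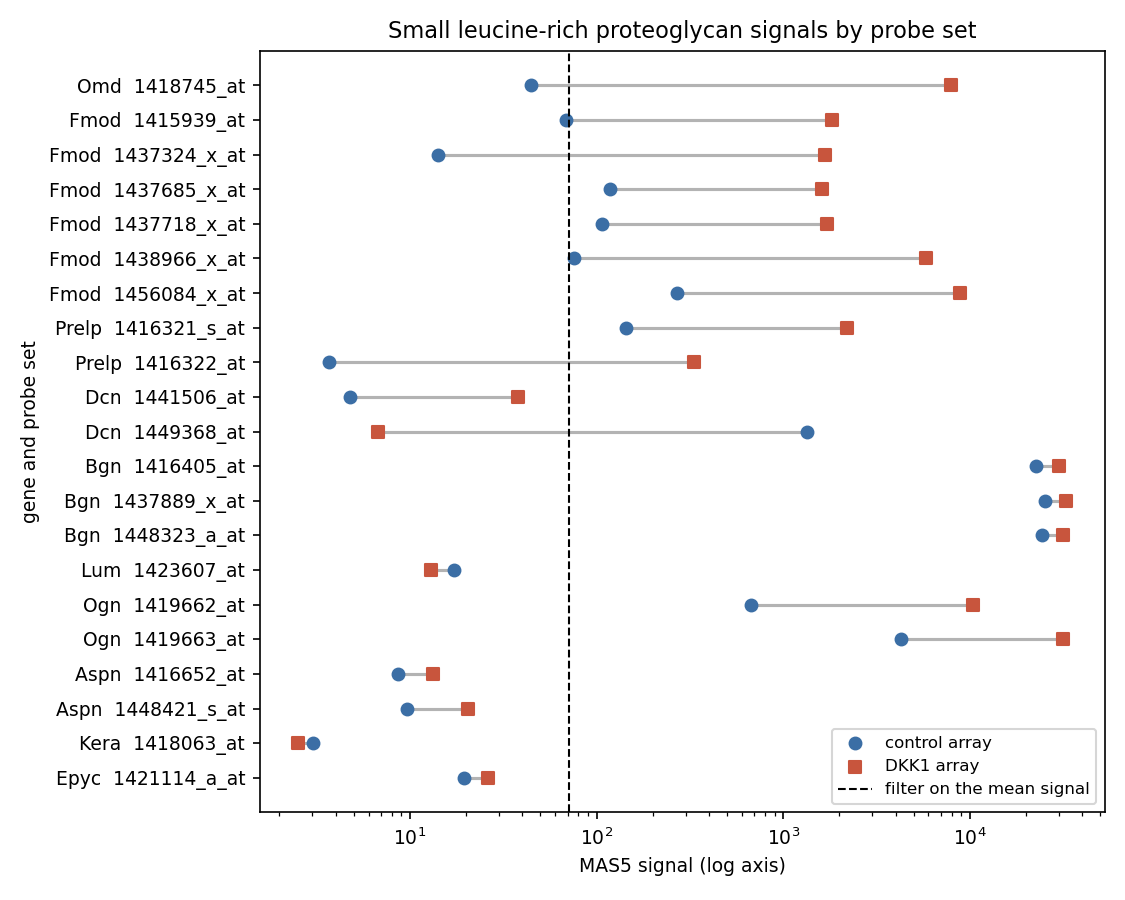
MAS5 signal on a log axis for each of the 21 probe sets of the 10 genes, with the control array as circles, the DKK1 array as squares and the filter value of 71.3 dashed; each point is 1 array. Omd, Fmod, Prelp and Ogn move to the right in the DKK1 cells, Bgn stays between 22501 and 32902 on both arrays, and the brighter Dcn probe set moves from 1345 to 6.73.

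Of the class II proteins, Omd binds hydroxyapatite and is made by osteoblasts in mineralising bone. Its single probe set gave 44.8 in control and 7967 in DKK1 cells. The control signal was under the filter, so Omd was at least 112-fold higher, with a difference of 7.02. Under the 13 alternative processing choices that difference ran from 6.13 to 7.44.

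Fmod encodes fibromodulin, which binds collagen I and modulates its cross-linking by lysyl oxidase. Its 6 probe sets gave control signals of 68.2, 14.2, 119, 106, 75.8 and 271. In the same order the DKK1 signals were 1827, 1675, 1606, 1717, 5824 and 8876. Each of the 6 probe sets was brighter on the DKK1 array. The 4 probe sets with both signals at or above the filter differed by 13.5-fold to 76.8-fold, so they agreed on the direction but not on the size. The mean difference was 4.76 with an SD of 0.99 between probe sets, against a pooled SD of 0.45 over the 4978 genes with at least 2 measured probe sets. Of the 6 probe sets 5 have names ending in _x_at, a class that can match several transcripts. The remaining one, 1415939_at, differed by 4.44.

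Prelp encodes prolargin, which anchors collagen to the heparan sulfate proteoglycan perlecan at basement membranes. Its probe set 1416321_s_at went from 144 to 2191, a 15.2-fold difference. The second, 1416322_at, went from 3.70 to 334, where the control value was far under the filter and the bound was 4.69-fold. Prelp was thus at least 8.44-fold higher over both, at a difference of 3.94. This value was among the more dependent on processing, from 2.93 with a pseudocount at the median signal to 5.04 with a pseudocount of 1.

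Lum and Kera, the remaining class II genes, were under the filter on both arrays. Lumican regulates fibril spacing in cornea, skin and tendon, and its probe set gave 17.1 in control and 13.0 in DKK1 cells. Keratocan is a protein of the corneal stroma, and its probe set gave 3.02 and 2.52. No fold is given for either, since both signals were dim.

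Class I held a bright gene that was not called and a gene called lower. Bgn encodes biglycan, an abundant proteoglycan of bone matrix, and its 3 probe sets gave nearly the same difference. The control signals were 22501, 25362 and 24250 and the DKK1 signals 30188, 32902 and 31470. Each Bgn probe set was 1.30-fold to 1.34-fold brighter on the DKK1 array, and the gene difference was 0.39 with an SD of 0.03 between probe sets. Bgn was not called under any of the 13 alternatives. Its sign depended on the scaling, from −0.25 with the spike-ins carried through labelling to 0.76 with those added after it. On the DKK1 array the Bgn signals lay near the brightest ones of Ogn (31644) and Pcolce (32540). Whether signals this bright understate a difference was not tested.

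Dcn encodes decorin, which binds collagen, TGF-beta and several receptor tyrosine kinases. Probe set 1449368_at went from 1345 in control to 6.73 in DKK1 cells, the opposite direction to Omd and Fmod. Its difference was −5.86, at least 18.9-fold lower. The second probe set, 1441506_at, gave 4.76 and 37.9, both under the filter and in the other direction. Without the filter the pair averaged −2.26 and Dcn was no longer called, so the call rests on 1 probe set.

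Aspn encodes asporin, a decorin relative with an aspartate-rich end that binds TGF-beta. Its probe sets gave 8.68 and 9.69 in control against 13.2 and 20.4 in DKK1 cells. All were under the filter, and they have no order.

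Class III was split between a bright gene and a dim one. Ogn encodes osteoglycin, a protein of bone matrix that was first purified with bone-forming activity. Its probe set 1419662_at went from 670 to 10378 and 1419663_at from 4291 to 31644. These are 15.5-fold and 7.37-fold differences, and all signals were above the filter. Ogn thus has a measured fold in place of a bound, with a difference of 3.40 and an SD of 0.74 between its probe sets. Among the 9519 genes whose measured probe sets were all above 71.3 on both arrays, Ogn ranked 17 from the highest. Omd, Fmod and Prelp are outside that set, since each had a control signal under 71.3. Ogn was picked with these values in view, so its rank is a description only. Epyc, a proteoglycan of growth plate cartilage, gave 19.6 in control and 26.4 in DKK1 cells and was not measured.

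**Figure D2:**
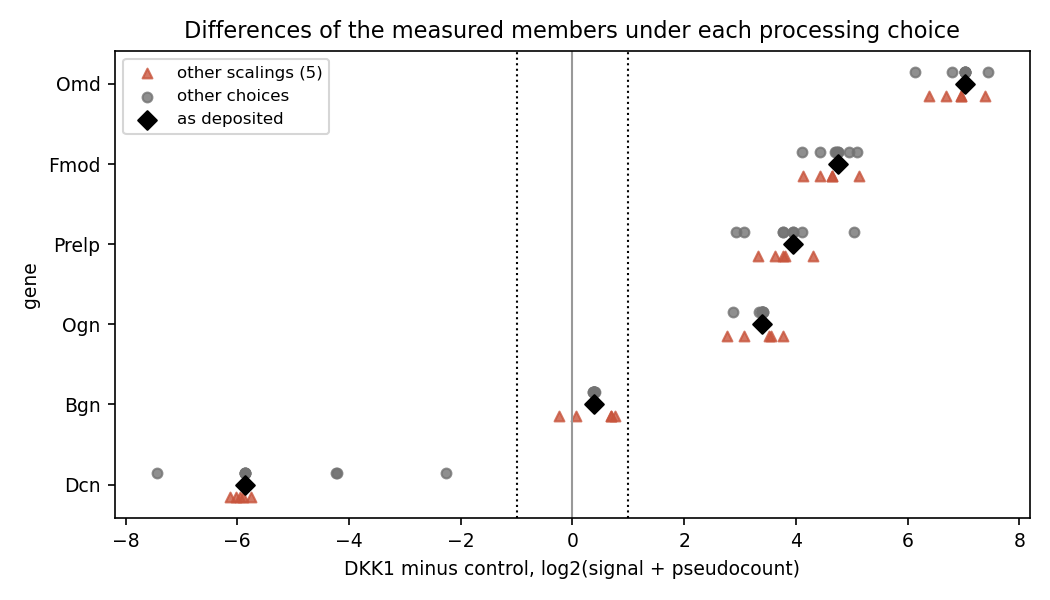
Difference of DKK1 minus control on the log2(signal + pseudocount) scale for the 6 measured genes, with the deposited scaling as diamonds, 5 other scalings as triangles and the other processing choices as circles; dotted lines mark a difference of 1 in either direction. Omd, Fmod, Prelp and Ogn stay above 1 and Dcn stays below −1 throughout, while Bgn runs from −0.25 to 0.76 on both sides of 0; the Dcn value of −2.26 is past the line but not called, because its probe sets had opposite signs.

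Grouped by class, 3 of 5 class II genes were measured and all 3 were called higher. Of the 3 class I genes 2 were measured, with 1 called lower and 0 higher. Of the 2 class III genes 1 was measured and was called higher. As for the members as a whole, a gene bright on 1 array alone had to differ. These counts, beside 11.7% higher and 6.91% lower among all measured genes, are thus a description only. The 6 member probe sets that were not measured had mean signals of at most 23.0, and the dimmest measured one had 169, so no member probe set lay close to the filter of 71.3.

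The 10 genes lie at 4 places in the mouse genome, as ordered in the RefSeq annotation of GRCm38.p6. Prelp and Fmod are neighbours on chromosome 1, and both were called higher. Aspn, Omd and Ogn follow each other on chromosome 13, where Omd and Ogn were called higher and Aspn was dim on both arrays. Dcn, Lum, Kera and Epyc follow each other on chromosome 10, where Dcn was called lower and the others were dim. Bgn stands alone on chromosome X.

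The 3 nearest protein-coding genes on either side of each place gave 24 neighbours, of which 22 were on the array and 13 were measured. Of these 13, 1 was called higher and 1 lower, beside 11.7% and 6.91% of all measured genes. Atp2b4, a plasma membrane calcium pump gene separated from Prelp by Optc, went from 55.8 to 428, a difference of 2.62. Optc, which encodes the eye proteoglycan opticin, was under the filter at 38.2 and 12.9. Btg2, an antiproliferative gene on the far side of Fmod, had a difference of −0.46 and was not called as deposited. On the spike-ins carried through labelling Btg2 was called lower (−1.06). On chromosome 13, Ecm2, a matrix gene with leucine-rich repeats beside Aspn, was under the filter on both probe sets. Nol8, beside Ogn, was not called as deposited at −0.68, and the isoleucyl-tRNA synthetase gene Iars was called lower at −1.09. The Iars call ended with scaling on the spike-ins added after labelling (−0.72) and without _s_at and _x_at probe sets (−0.95).

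At 3 of the 4 places a gene of the calcium pump family lies within this window, a feature singled out after the values were seen. Besides Atp2b4, these are Atp2b1 beside the Dcn group (−0.26) and Atp2b3 beside Bgn (−0.24), neither of them called. Btg1, a relative of Btg2, lies near Dcn and had a difference of −0.68, not called as deposited.

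**Figure D3:**
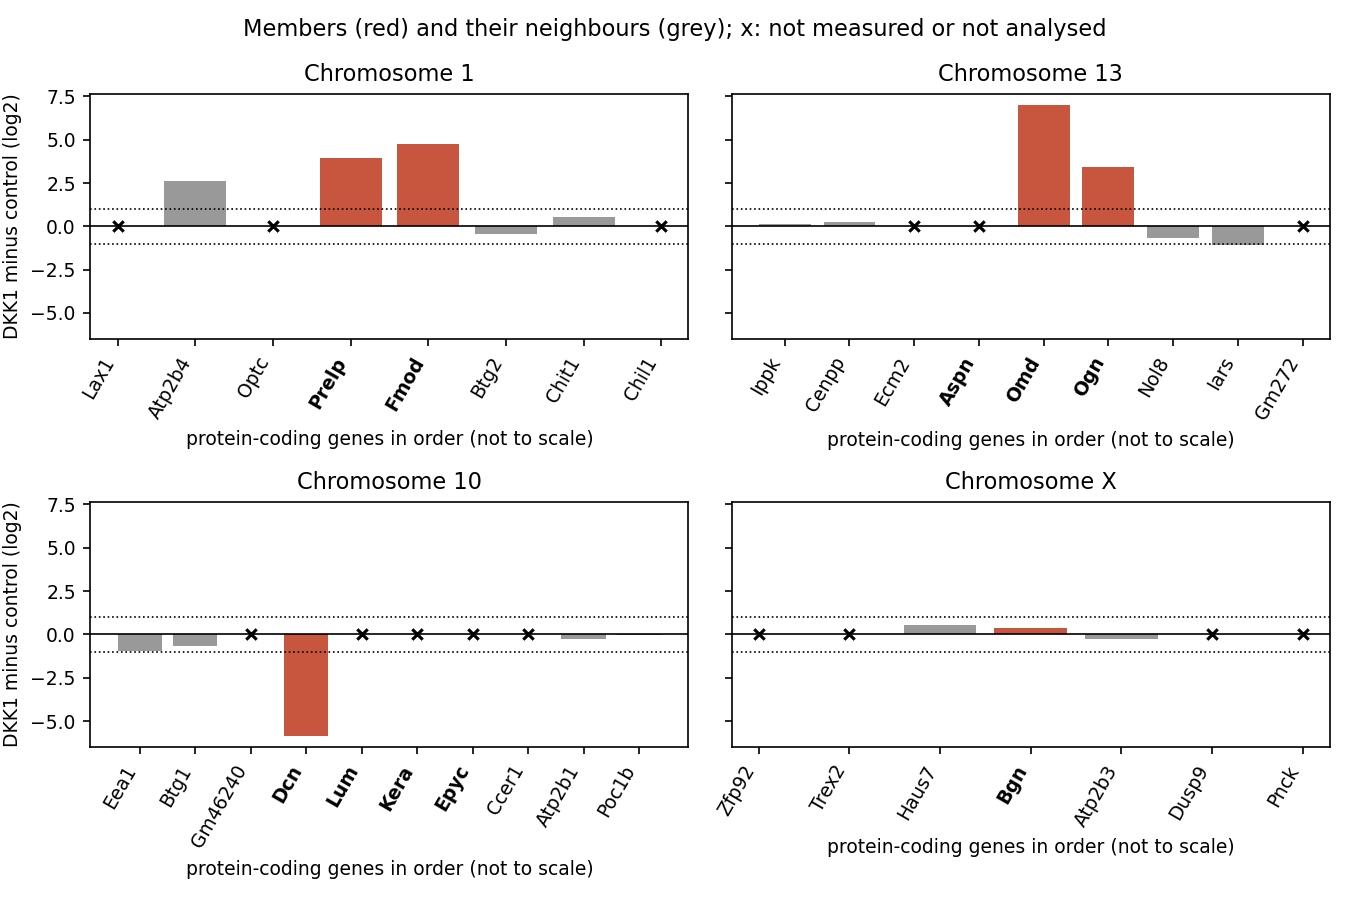
Difference of DKK1 minus control (log2) for the 10 genes (red) and their protein-coding neighbours (grey) in gene order, not to scale; crosses mark genes not measured or not analysed, and dotted lines a difference of 1. The red bars rise for Prelp and Fmod on chromosome 1 and for Omd and Ogn on chromosome 13 and fall for Dcn on chromosome 10, while Atp2b4 and Iars are the grey bars past a dotted line.

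The stretch upstream of the start is shown for the 4 genes called higher and for Bgn, which was bright on both arrays and not called, so that genes moving together can be set beside one that did not pass the threshold. The RefSeq promoter table (GRCm38.p6) held sequences for 8 of the 10 genes. Dcn and Lum had none, so the gene called lower could not be set beside the others. Each line gives the 250 bases before the annotated start, 5′ to 3′ on the gene's strand. Capitals mark matches on either strand to the TATA box TATAAA, the TCF/LEF core CTTTGA, the RUNX core TGTGGT and the SMAD element CAGAC. Omd lies at chr13:49582212-49582461 on the plus strand, Ogn at chr13:49607765-49608014 on the plus strand, Fmod at chr1:134037004-134037253 on the plus strand, Prelp at chr1:133921402-133921651 on the minus strand and Bgn at chrX:73483351-73483600 on the plus strand.
Omd: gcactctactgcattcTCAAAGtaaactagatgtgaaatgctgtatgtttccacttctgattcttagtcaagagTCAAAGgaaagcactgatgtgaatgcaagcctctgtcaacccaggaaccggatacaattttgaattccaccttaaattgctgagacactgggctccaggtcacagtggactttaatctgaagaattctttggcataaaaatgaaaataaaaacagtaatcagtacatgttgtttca
Ogn: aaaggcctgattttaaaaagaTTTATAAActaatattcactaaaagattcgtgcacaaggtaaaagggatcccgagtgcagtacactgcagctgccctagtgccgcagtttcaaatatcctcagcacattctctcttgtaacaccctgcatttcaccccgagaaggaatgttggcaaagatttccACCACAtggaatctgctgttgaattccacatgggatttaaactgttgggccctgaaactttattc
Fmod: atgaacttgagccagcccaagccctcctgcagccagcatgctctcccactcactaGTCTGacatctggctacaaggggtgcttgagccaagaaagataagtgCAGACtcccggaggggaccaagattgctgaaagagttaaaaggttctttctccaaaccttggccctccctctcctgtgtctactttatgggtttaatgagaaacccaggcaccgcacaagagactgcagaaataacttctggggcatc
Prelp: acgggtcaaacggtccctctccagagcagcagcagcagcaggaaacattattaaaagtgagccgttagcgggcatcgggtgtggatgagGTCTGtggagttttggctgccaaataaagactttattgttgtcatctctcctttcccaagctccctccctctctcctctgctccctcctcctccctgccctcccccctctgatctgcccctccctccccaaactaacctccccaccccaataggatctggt
Bgn: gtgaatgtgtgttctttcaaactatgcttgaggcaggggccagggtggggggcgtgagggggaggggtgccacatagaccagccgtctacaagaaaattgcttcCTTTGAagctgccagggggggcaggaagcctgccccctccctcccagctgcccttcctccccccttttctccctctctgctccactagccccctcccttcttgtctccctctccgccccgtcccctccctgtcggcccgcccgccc

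The Omd stretch held the TCF/LEF core at 2 positions, both on the opposite strand, and Bgn held it at 1, so this match was found both in a gene called higher and in one not called. It was found in 13.8% of the 32851 promoter sequences in the table. The SMAD element was found in Fmod, at 2 positions, and in Prelp, at 1, and in 42.2% of all sequences. Ogn alone of the 5 held the TATA box, found in 12.4% of all, whose matches on both strands overlap 222 to 229 bases before the start. It also held the RUNX core, found in 14.0%. No match to one motif overlapped a match to another. No motif was shared by all 4 genes called higher. Of the dim genes not shown, Epyc also held the TCF/LEF core and Aspn the TATA box. GC content was 38.4% for Omd, 42.0% for Ogn, 51.2% for Fmod, 55.6% for Prelp and 64.4% for Bgn, against a median of 52.4% over all sequences. A match is a description of the letters and says nothing about binding.

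The genes that build, cut or bind these proteoglycans were examined through 10 lists with 134 genes, of which 87 were measured. Of these, 25 were called higher and 2 lower in the DKK1 cells, beside 11.7% and 6.91% of all measured genes. The split moved with the scaling, to 16 higher and 2 lower after median centring, 36 and 1 on the spike-ins added after labelling, and 10 and 8 on those carried through it. The lists were chosen with earlier results of these data known, and here too a gene bright on 1 array alone had to differ. Nothing is thus read from these counts, together or by list, against the shares of all genes. Medians of a list below are over its measured genes, beside 0.10 for all measured genes.

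Among other matrix proteins with leucine-rich repeats, 1 of 8 was measured, Podn (0.53), and it was not called. The enzymes that build the linkage between protein and chain had 1 of 5 measured genes called higher and 0 lower, with a median of 0.40. Pxylp1, a phosphatase that acts on the linkage xylose so that the chain can be extended, was higher by 2.33 (SD 0.21 between 2 probe sets). Fam20b, the kinase that adds that phosphate, differed by 0.40, and the linkage galactosyltransferase gene B4galt7 by −0.68. B4galt7 was called lower on the spike-ins carried through labelling (−1.27).

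Enzymes of chondroitin and dermatan sulfate, the chains of decorin and biglycan, had 4 of 13 measured genes called higher and 0 lower, with a median of 0.53. Chst12, a chondroitin 4-O-sulfotransferase gene, went from 12.5 to 200 (2.90, at least 2.80-fold). Chst7, which encodes a 6-O-sulfotransferase, went from 78.1 to 334 (1.89), and Chst15, for a further sulfotransferase, differed by 1.40. Chst12 and Chst7 were not measured with the stricter filter, and the Chst15 call ended on the spike-ins carried through labelling (0.78). Dse, the epimerase gene that turns chondroitin into dermatan sulfate, was the fourth (1.23) and is named here after its value was seen. Its call ended after median centring (0.90) and on those spike-ins (0.59). The chain-extending genes Chsy1 (0.90) and Csgalnact2 (0.05) were not called as deposited. Chsy1 was called higher after loess (1.02) and on the spike-ins added after labelling (1.27).

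Enzymes of keratan sulfate, the usual chain in class II, had 0 of 5 measured genes called in either direction as deposited, with a median of −0.14. B4galt1, a galactosyltransferase gene, differed by −0.46 and B3gnt2, which encodes an N-acetylglucosaminyltransferase, by −0.53. Both were called lower on the spike-ins carried through labelling, at −1.10 and −1.16. The 6 measured genes of sulfate supply had 0 calls and a median of 0.34, among them Bpnt2 (0.59) and Papss1 (−0.06), which encodes a synthase of the sulfate donor. Of the tyrosine sulfation enzymes, which modify fibromodulin, osteomodulin and lumican, Tpst1 was called higher (1.30; signals of 324 and 822) and Tpst2 was not (0.20). The Tpst1 call ended after median centring (0.98) and on the spike-ins carried through labelling (0.67).

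Fibril-forming collagens and the proteins that work beside them had 7 of 15 measured genes called higher and 0 lower, with a median of 0.79. Lox, the lysyl oxidase gene whose enzyme cross-links collagen, was higher by 2.33 (SD 0.76 between 3 probe sets). Thbs1, for a matrix glycoprotein, was higher by 3.71 (SD 1.38 between 2 probe sets), and Tnxb, a tenascin gene, went from 11.1 to 188 (2.89, at least 2.64-fold). The collagen genes Col1a2 (0.05) and Col3a1 (0.59), which encode fibril chains that these proteoglycans bind, were not called. Col11a1 (1.27) and Col12a1 (1.34), named after their values were seen, were called higher, and with the spike-ins carried through labelling these calls ended at 0.65 and 0.72. With median centring 4 and with the spike-ins carried through labelling 3 of the list were called higher.

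Large and cell surface proteoglycans had 5 of 13 measured genes called higher and 0 lower, with a median of 0.78. Agrn, for agrin, was higher by 1.76, the syndecan gene Sdc3 by 1.58 and the glypican gene Gpc6 by 1.44. The Agrn and Sdc3 calls ended without the filter (0.84 and 0.70), and those of Sdc3 and Gpc6 on the spike-ins carried through labelling (0.95 and 0.85), where 1 of the list was called higher. Tgfbr3 (0.78) and Gpc1 (0.11) were not called as deposited, and Tgfbr3 was called higher on the spike-ins added after labelling (1.15).

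Proteases that cut small proteoglycans, with their helpers, had 1 of 12 measured genes called higher and 1 lower, with a median of 0.30. Adamts5, an aggrecanase gene, was higher by 1.54, a call that ended on the spike-ins carried through labelling (0.90). Pcolce2, an enhancer of procollagen processing, was called lower (−1.27), from 210 to 77.4, a call that ended on the spike-ins added after labelling (−0.96) and with the larger pseudocount (−0.93). The related Pcolce (0.94) and the collagenase gene Mmp13 (0.30) were not called as deposited, and Pcolce was called higher after quantile normalization (1.17), after loess (1.19) and on the spike-ins added after labelling (1.31).

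Growth factors and receptors that these proteoglycans bind had 6 of 15 measured genes called higher and 1 lower, with a median of 0.56. Bmp4 went from 51.7 to 1924 (4.83, at least 27.0-fold) and Bmp2 from 23.5 to 483 (3.64, at least 6.78-fold), both bone morphogenetic proteins. Tgfb3 went from 152 to 725 (2.13). Ccn4, whose protein binds decorin and biglycan, was called lower (−1.65, SD 0.14 between 2 probe sets). The receptor genes Met (−0.23) and Lrp1 (0.29) were not called. The receptor genes Igf1r (1.18), Tgfbr2 (1.04) and Egfr (1.01), named after their values were seen, were called higher. On the spike-ins carried through labelling these calls ended, at 0.59, 0.40 and 0.43. The Egfr call (SD 1.20 between 3 probe sets) held under only 3 of the alternatives. With median centring 3 of the list were called higher, and with the spike-ins carried through labelling 3 were called higher and 2 lower.

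**Figure D4:**
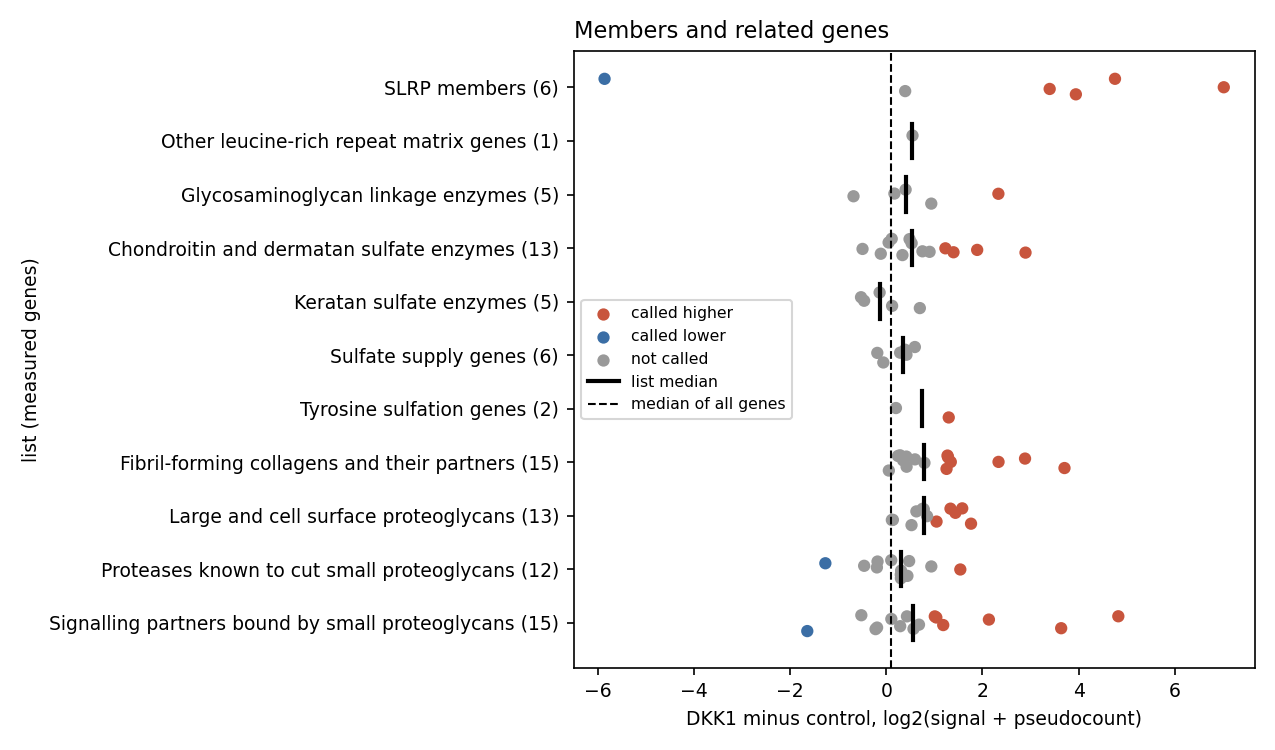
Difference of DKK1 minus control on the log2(signal + pseudocount) scale for each measured gene, by list, with called genes coloured, list medians as black bars and the median of all genes (0.10) dashed; no median is drawn for the small leucine-rich proteoglycans (SLRP). Omd (7.02) and Dcn (−5.86) lie outside the range of −1.65 to 4.83 spanned by the related genes, Fmod (4.76) lies inside it near Bmp4, and the keratan sulfate genes lie between −0.53 and 0.70. The proteoglycan genes were picked with these values in view, and Omd and Dcn each passed the filter through 1 array, so their place is a description only.

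Markers of other cell types were mostly under the filter. Of 8 chondrocyte markers 2 were measured. The 15 probe sets of all 8 summed to 1237 in control and 1125 in DKK1 cells. Sox9 averaged 457 in control and 401 in DKK1 cells over its 2 measured probe sets and was not called (−0.19). Col2a1 and Acan were under the filter, while Col9a1 was called higher at the threshold itself (signals of its measured probe set 48.0 and 113). Of 4 tendon cell markers 2 were measured, and the 5 probe sets of all 4 summed to 798 and 1426. Mkx, a tendon transcription factor, went from 583 to 1130 (0.93, not called as deposited), while Tnmd was under the filter at 3.88 and 34.1. Scx averaged 103 and 130 over its measured probe sets and was not called either (0.21). Leukocyte, endothelial and epithelial lists had 4 of 10, 1 of 5 and 3 of 6 markers measured, and the signals of all probe sets of each list summed to 805, 217 and 573 in control against 987, 198 and 777 in DKK1 cells. Of the leukocyte markers Lyz2 was called higher (2.29) and Laptm5 lower (−1.10), with no signal of the list above 166. Cd68 (86.4 and 127) and Csf1r (means of 117 and 164) were measured and not called. Ptprc, Itgam and Tyrobp were under the filter on both arrays, and Pecam1 and Cdh5 for endothelium likewise. Kdr, the measured endothelial marker, gave 66.0 and 116 and was not called as deposited. The measured epithelial markers Epcam (226 and 264), Krt8 (means of 58.8 and 113) and Krt5 (70.3 and 114) were not called as deposited. No marker was listed at exactly 0. The part of any of these markers in the differences of the proteoglycan genes was not tested. As a measure of RNA integrity, the ratio of 3′ to 5′ signals was 0.823 in control and 0.759 in DKK1 cells for Gapdh and 1.61 and 1.25 for Actb.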

How the data were processed

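Total RNA of 1 control and 1 DKK1 culture was profiled on 1 Affymetrix 3′ expression array each. The deposited intensity values are 1 linear signal per probe set, made with MAS5 (per the submitters' processing notes). Its version and options are not stated in those notes, and no detection calls were used. Symbols came from the platform's annotation and were updated by gene ID through RefSeq (GRCm38.p6), which matched 34741 of 34945 probe sets with 1 symbol; 932 had several symbols and 9211 none.

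From these, differences were computed with Python 3.11.15 and pandas 2.3.3, with the filter, pseudocount and calling rule stated with the results, and 13 alternatives were tried. The calling was tested on simulated data with differences far above the threshold and little noise. That simulation does not bear on calls near the threshold or on the scaling. With 1 array per group no test was made. The proteoglycan genes and the lists were chosen with earlier results of these data known. The genes named are all 10 proteoglycans and, from each list, up to 3 called genes in each direction with the largest difference and up to 2 uncalled genes with the highest mean signal; of the neighbours, every called one, and others were added after their values were seen.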

Additional observations from a re-analysis of the deposited data

How the results depend on the processing

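Over the 13 alternatives, Omd, Fmod, Prelp and Ogn kept their direction and their calls and Bgn stayed uncalled, while Dcn kept its direction in all and its call in 12. The number of small leucine-rich proteoglycans called lower was 0 without the filter, against 1. The number of all genes called was 1337 with the stricter filter of 427, against 2057, where 7097 in place of 11058 genes were measured. Of the neighbours, the 2 called became 4 after median centring and without the filter, 6 on the spike-ins carried through labelling, and 1 on those added after labelling, with the stricter filter and without _s_at and _x_at probe sets. Chst12, Chst7, Tnxb, Bmp2, Pcolce2 and Atp2b4 were not measured with the stricter filter. Except where fewer or more genes were measured, the cause was not tested. Without replicates, array, culture and vector effects cannot be told apart. No paired analysis was possible because each group has 1 array.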
